A study of Homo sapiens with 27 samples.

Results

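The genes of the YAP, TAZ and TEAD axis were followed through bulk RNA-seq of SUM159 and MDA-MB-231, human triple negative breast cancer (TNBC) cell lines with mesenchymal features. They were YAP1, WWTR1 (which encodes TAZ), TEAD1, TEAD4, CCN1, CCN2, ANKRD1, AMOTL2, AJUBA and LATS2, taken by name as members of the pathway with earlier results of these data known, 10 of the 57165 genes counted. Each line was measured as untransduced wild type cells, as cells carrying a lentiviral dCas9-KRAB vector without a guide (No gRNA), and as cells carrying the same repressor with gRNAs against the ZEB1 promoter. Guides were given singly (gRNA 4) or as a mix of all 4 (All gRNA), and transduced cells were selected with puromycin. Each of the 9 groups had 3 libraries, which the labels call biological replicates and the study's methods call individual clones. Run 1 held SUM159 alone, and run 2 held MDA-MB-231 and a further 3 SUM159 wild type libraries. For 6 MDA-MB-231 libraries the title names one gRNA condition and the data column the other. They were kept as set 1 (title gRNA 4, column all gRNAs) and set 2 (title all gRNAs, column gRNA 4) and assigned to neither.

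YAP and TAZ are transcriptional coactivators without a DNA binding domain of their own. They reach promoters and enhancers through the TEAD factors, and the Hippo kinase cascade, which ends in LATS1 and LATS2, phosphorylates them and keeps them out of the nucleus when cells are dense, rounded or on soft matrix. CCN1, CCN2 and ANKRD1 are their classical target genes, AMOTL2 and LATS2 are targets that feed back on the pathway as inhibitors, and ZEB1, a repressor of epithelial genes, is known to bind YAP and to act with it at shared sites. In bulk RNA a change in all cells and a change in some of them cannot be told apart, and RNA levels do not report on the phosphorylation or location of YAP and TAZ proteins.

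The promoters of CCN2 and ANKRD1 are shown because these targets differed most between the lines. Each covers the 250 bases before the canonical start site, taken from RefSeq on GRCh38.p14 and read 5′ to 3′ on the minus strand, which is the strand of both genes. Capitals mark the TEAD core GGAATG, or CATTCC where it lies on the opposite strand. The CCN2 window is chr6:131951373-131951622 and the ANKRD1 window is chr10:90921088-90921337.
CCN2: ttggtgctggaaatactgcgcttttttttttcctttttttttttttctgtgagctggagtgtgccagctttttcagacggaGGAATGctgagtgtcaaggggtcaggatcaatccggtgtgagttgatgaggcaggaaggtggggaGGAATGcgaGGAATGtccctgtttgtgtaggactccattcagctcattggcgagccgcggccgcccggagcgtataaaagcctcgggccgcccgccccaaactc
ANKRD1: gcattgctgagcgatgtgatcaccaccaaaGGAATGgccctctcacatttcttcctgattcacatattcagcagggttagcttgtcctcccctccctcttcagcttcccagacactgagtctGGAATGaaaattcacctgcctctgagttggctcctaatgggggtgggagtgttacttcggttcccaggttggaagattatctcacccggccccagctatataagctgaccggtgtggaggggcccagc

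Counted from the start site, the CCN2 window held the core 3 times, beginning at -169, -104 and -95, and the ANKRD1 window held it 2 times, beginning at -220 and -128. Promoter entries at the canonical start were matched for 7 of the 10 genes. The core was in 4 of these 7 (CCN2, ANKRD1, AMOTL2 and YAP1) and in none of the windows of WWTR1, AJUBA and LATS2, while 11.9% of 35116 promoters of the same length held it on either strand. The E-box CAGGTG, the kind of sequence that ZEB1 recognises, was in the windows of ANKRD1 and LATS2 and in 17.5% of all promoters, with no overlap with a TEAD core in ANKRD1. A match is a description of the letters and does not show binding in these cells.

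Expression is given as CPM, estimated counts scaled to a common library size with TMM, and the libraries held between 15461200 and 21473757 estimated counts. ZEB1 checked the labels: it was at 73.8 CPM in SUM159 No gRNA, 3.46 in gRNA 4 cells and 0.738 in All gRNA cells, and at 110.2 in MDA-MB-231 No gRNA, 5.34 in set 1 and 4.69 in set 2. Wild type cells had 79.7 CPM in SUM159 run 1 and 70.1 in MDA-MB-231. ZEB1 in No gRNA was thus above wild type in MDA-MB-231 (0.60 on the log2 scale, moderated adjusted p = 5.16e-05). The SUM159 difference was not called (-0.12, adjusted p = 0.313). Hormone receptor transcripts were near 0, as the TNBC label implies, with ESR1 and PGR under 1 CPM in every library. ERBB2 RNA was present, at group means of 42.1 to 63.1 CPM. PTPRC, a leukocyte marker, stayed under 0.3 CPM, and PECAM1, an endothelial marker, had group means of 0.801 to 6.57 CPM. PECAM1 moved with ZEB1 targeting in SUM159, from 1.04, 2.13 and 0.865 CPM in wild type libraries and 1.18, 3.09 and 3.75 in those of No gRNA to 7.48, 6.45 and 4.33 in gRNA 4 cells and 6.81, 4.96 and 7.93 in All gRNA cells, above every control library of the run. Against No gRNA this was 1.29 and 1.42 on the log2 scale (moderated adjusted p = 0.0624 and 0.0393), and against wild type 2.21 and 2.34 (adjusted p = 0.00206 and 0.0012). In MDA-MB-231 it was lower than No gRNA in set 2 (-1.94, adjusted p = 0.00317). The part of these differences in the results was not tested.

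CCN1, CCN2 and ANKRD1 differed more between the wild type lines than they changed in any ZEB1-targeted group against No gRNA in which they were tested. The plot of abundance by library gives all 27 values of each gene.

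**Figure D1:**
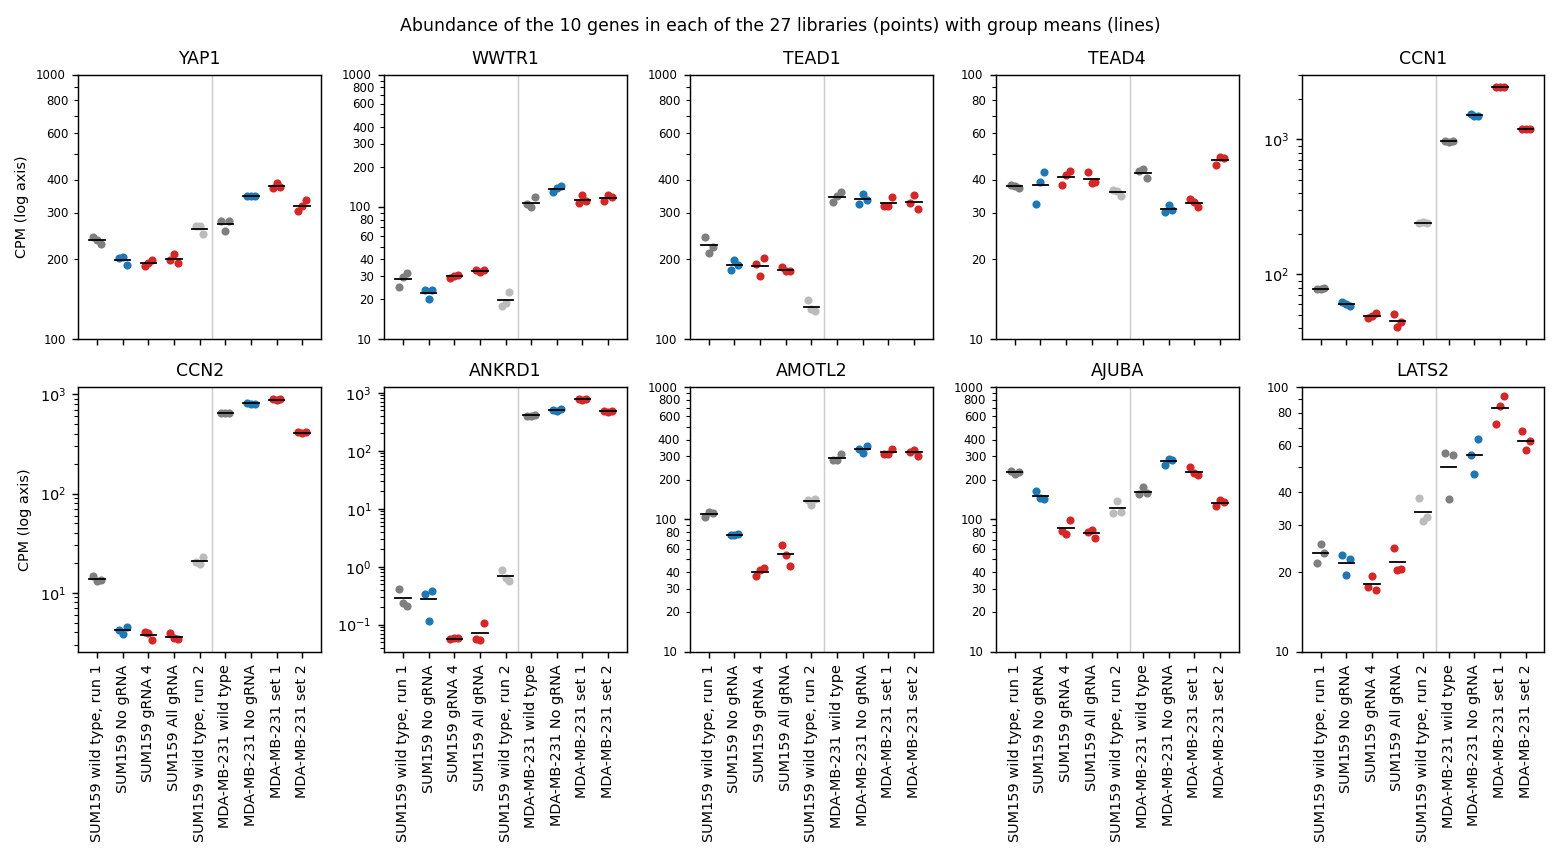
Abundance of the 10 genes in each of the 27 libraries, in CPM on a log axis that differs between panels, with 3 points per group and a line at the group mean. CCN1, CCN2 and ANKRD1 are higher in every MDA-MB-231 library than in any SUM159 library, with ANKRD1 at 0.0574 to 0.690 CPM in the SUM159 groups and 407 to 771 in the MDA-MB-231 groups.

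The lines were compared as wild type cells of the same run. The study's methods give a different culture medium for each line, so line and medium cannot be told apart. By limma's TREAT test, which asks whether a log2 fold change exceeds 1, 5 of the 10 genes were called lower in SUM159 than in MDA-MB-231 (28.2% of all genes tested were called in either direction), and by the moderated test of the same fit against 0, 9 of 10 were lower (71.1% of all genes). Here and below, a call is a Benjamini-Hochberg adjusted p-value under 0.05 over all genes of the fit. ANKRD1, a stretch-responsive ankyrin repeat protein, was at 0.874, 0.627 and 0.570 CPM in the 3 SUM159 libraries of run 2 and at 403, 402 and 417 in the MDA-MB-231 wild type libraries, a log2 difference of -9.16 (standard error 0.228, TREAT adjusted p = 2.89e-18). The groups were far from overlapping, and the SUM159 level rested on a mean of 10.9 counts. CCN2, the matricellular protein also known as CTGF, was at 20.7, 19.3 and 23.2 CPM in SUM159 and 652, 652 and 649 in MDA-MB-231 (log2 difference -4.95, TREAT adjusted p = 4.15e-23). CCN1, its paralog also known as CYR61, was at 239, 244 and 242 and 977, 966 and 979 CPM (log2 difference -2.01, TREAT adjusted p = 2.46e-17). The same order held for WWTR1 (-2.45, TREAT adjusted p = 9.05e-11) and TEAD1 (-1.38, TREAT adjusted p = 3.03e-05). AMOTL2 stood at -1.08, which missed the TREAT threshold (adjusted p = 0.367). TEAD4, AJUBA and LATS2 were lower in SUM159 by less, at -0.25, -0.43 and -0.54 with moderated adjusted p-values of 0.008, 0.000138 and 0.00242. YAP1 was the gene that neither test called, at 262 ± 10.3 CPM (SD, n = 3) in SUM159 and 272 ± 14.4 in MDA-MB-231, where the groups overlapped.

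YAP1 (chromosome 11, 102110447 to 102233424) and WWTR1 (chromosome 3, 149517235 to 149736714) encode the coactivators. Per kilobase of the canonical transcript, the YAP1 level was above the WWTR1 level in all 9 groups, at 36.0 to 48.4 CPM per kb against 3.92 to 6.55 in SUM159 and at 50.4 to 70.1 against 21.4 to 27.3 in MDA-MB-231. Against No gRNA, YAP1 did not pass the test in either ZEB1-targeted group of SUM159, with 203, 204 and 190.2 CPM in No gRNA, 189, 194 and 199.9 in gRNA 4 cells and 199.9, 210.4 and 194 in All gRNA cells. These groups overlapped, and the log2 fold changes were 0.015 for All gRNA (standard error 0.0507) and -0.044 for gRNA 4 (standard error 0.0512). In MDA-MB-231 the level was 346, 348 and 346 CPM in No gRNA, 371, 388 and 377 in set 1 and 306, 318 and 336 in set 2. Set 1 lay above No gRNA by a log2 fold change of 0.13 (moderated adjusted p = 0.0224), a call lost without set 1 replicate 2 or without any 1 of the No gRNA libraries (adjusted p = 0.0524 to 0.0979), and set 2 lay below it by a change that the test did not call (-0.096, adjusted p = 0.0682). Against wild type, YAP1 was called lower in both SUM159 groups, at -0.24 for All gRNA and -0.30 for gRNA 4 (moderated adjusted p = 0.00159 and 0.000411), and higher in both sets, at 0.43 and 0.20 (adjusted p = 3.81e-06 and 0.00368).

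WWTR1 moved in opposite directions in the lines. In SUM159 it rose from 23.6, 20.1 and 23.6 CPM in No gRNA to 28.9, 30.0 and 30.4 in gRNA 4 cells and 33.5, 32.4 and 33.1 in All gRNA cells, so that every targeted library lay above every No gRNA library. The log2 fold changes were 0.40 (standard error 0.102, moderated adjusted p = 0.0257) and 0.56 (standard error 0.0999, moderated adjusted p = 0.00384). In MDA-MB-231 it fell from 130.3, 138 and 144 CPM in No gRNA to 107, 122 and 109.9 in set 1 and 110.4, 123 and 118 in set 2, again without overlap. These changes were -0.28 and -0.21, with moderated adjusted p-values of 0.0116 and 0.0317. Over the 6 targeted libraries of a line against the 3 of No gRNA, the exact two-sided permutation test returned p = 0.0238 in SUM159 and p = 0.0238 in MDA-MB-231, the smallest p-value that such a test can give, and the test was run 20 times, once for each gene and line. Its p-values were not adjusted, and the libraries of 2 guide conditions entered as 1 group. In SUM159 and MDA-MB-231 it returned 0.857 and 0.976 for YAP1, 0.548 and 0.429 for TEAD1, and 0.452 and 0.0476 for TEAD4. For CCN2 it gave 0.0952 and 0.476, for LATS2 0.31 and 0.0714, and for ANKRD1 0.0238 (at too few counts) and 0.476. In MDA-MB-231 CCN1 had 0.476 and AMOTL2 0.143. The WWTR1 difference between the lines was itself called by the moderated test, at -0.74 (standard error 0.12, adjusted p = 5.88e-05). Against wild type cells the moderated test called none of the WWTR1 changes. They were 0.051, 0.21, 0.018 and 0.088, with moderated adjusted p-values of 0.0871 to 0.86, and No gRNA lay below wild type in SUM159 (-0.35) and above it in MDA-MB-231 (0.30). The gRNA 4 call was lost without gRNA 4 replicate 2 or 3 or No gRNA replicate 2 (adjusted p = 0.07 to 0.104), the set 1 call without set 1 replicate 1 (adjusted p = 0.051), and the set 2 call without set 2 replicate 1 or 3 or No gRNA replicate 2 or 3 (adjusted p = 0.0682 to 0.131).

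TEAD1 (chromosome 11, 12674421 to 12944737) and TEAD4 (chromosome 12, 2959330 to 3040676) encode DNA binding partners of YAP and TAZ. Per kilobase they stood close to each other in SUM159, with TEAD1 at 14.1 to 24.0 CPM per kb and TEAD4 at 21.0 to 24.1, while in MDA-MB-231 TEAD1 was at 34.7 to 36.7 and TEAD4 at 18.2 to 27.8. TEAD1 was called in none of the 4 comparisons with No gRNA by limma's TREAT or moderated test, and its log2 fold changes lay between -0.057 and -0.011 (standard errors 0.0544 to 0.07). Against wild type the moderated test called it lower for All gRNA (-0.31, adjusted p = 0.00255) and gRNA 4 (-0.27, adjusted p = 0.00591). TEAD4 rose in set 2, from 30.4, 32.0 and 30.8 CPM in No gRNA to 45.4, 48.7 and 48.3 in set 2, with set 1 at 33.9, 33.1 and 31.5. The rise was 0.63 on the log2 scale (standard error 0.0628, moderated adjusted p = 6.41e-06), and set 1 minus set 2 was -0.55 (adjusted p = 2.17e-05). Wild type MDA-MB-231 cells, at 43.1, 44.1 and 40.5 CPM, lay between No gRNA and set 2, and against them the set 2 change was 0.13 (adjusted p = 0.118).

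Across all members, TREAT called 0 of the 9 genes tested for All gRNA in SUM159, 0 of 9 for gRNA 4, 0 of 10 in set 1 and 0 of 10 in set 2, against 0.396%, 0.390%, 1.47% and 4.14% of all genes, and 0 members had an unadjusted TREAT p-value under 0.05 in any of them. DESeq2 and edgeR's quasi-likelihood test with the same threshold also called 0. Only AJUBA in set 2, at -1.02, had a log2 fold change past 1 in these comparisons, so TREAT cannot decide on smaller changes. In counts simulated for the All gRNA comparison, TREAT called 30.9% of the genes given a log2 change of 1.5. The moderated test called 4 of 9 for All gRNA (1 higher and 3 lower, with 10.8% of all genes called, 5.93% higher and 4.89% lower) and 4 of 9 for gRNA 4, also 1 higher and 3 lower (11.0% of all genes, 6.11% higher and 4.91% lower). The comparisons of a line share their 3 No gRNA libraries. In MDA-MB-231 the test called 7 of 10 in set 1, 5 higher and 2 lower (37.8% of all genes, 20.4% higher and 17.3% lower), and 5 of 10 in set 2, 1 higher and 4 lower (52.4% of all genes, 27.3% higher and 25.1% lower). The median log2 fold change of the members was -0.057 for All gRNA, -0.16 for gRNA 4, 0.11 in set 1 and -0.081 in set 2, and that of all genes was between -0.012 and 0.0001.

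CCN1 (chromosome 1, 85580761 to 85584589) fell in SUM159 from 62.3, 60.5 and 58.2 CPM in No gRNA to 47.6, 49.5 and 51.5 in gRNA 4 cells and 51.1, 40.7 and 44.7 in All gRNA cells. All 6 targeted libraries were below all 3 of No gRNA (two-sided exact permutation test, p = 0.0238). The log2 fold change was -0.41 for All gRNA (standard error 0.0786, moderated adjusted p = 0.00562). For gRNA 4 it was -0.29 (standard error 0.0781, moderated adjusted p = 0.0328), and this call was lost when any 1 of its 6 libraries was left out, with changes of -0.32 to -0.27 and adjusted p-values of 0.0525 to 0.107. In MDA-MB-231 the sets split. CCN1 was at 1537, 1500.5 and 1484 CPM in No gRNA, 2465, 2430.4 and 2458 in set 1 and 1199, 1196 and 1195 in set 2, with no overlap between any of the groups. Set 1 was higher than No gRNA by 0.71 (standard error 0.0143, moderated adjusted p = 3.99e-11) and set 2 was at -0.31 (standard error 0.0168, moderated adjusted p = 4.72e-08). Wild type MDA-MB-231 cells had less CCN1 than both sets, at 977, 966 and 979 CPM, so that the set 2 change turned to 0.27 against them (adjusted p = 9.51e-07) and the set 1 change grew to 1.28, which TREAT called (adjusted p = 1.72e-07).

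CCN2 (chromosome 6, 131948176 to 131951372) was low in all transduced SUM159 cells, at 4.22, 3.82 and 4.53 CPM in No gRNA, 4.03, 3.95 and 3.37 in gRNA 4 cells and 3.90, 3.48 and 3.45 in All gRNA cells. These groups overlapped, and the log2 fold changes of -0.16 and -0.21 (standard errors 0.148 and 0.148) were not called. In MDA-MB-231 CCN2 was at 824, 796 and 808 CPM in No gRNA, 889, 875 and 897 in set 1 and 418, 407 and 413 in set 2. Set 2 had the lowest CCN2 of the 4 MDA-MB-231 groups, below wild type too (652, 652 and 649 CPM). Its change was -0.95 against No gRNA (standard error 0.023, moderated adjusted p = 6.36e-11) and -0.69 against wild type (adjusted p = 4.67e-09), while set 1 rose by 0.14 (adjusted p = 0.000214).

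ANKRD1 (chromosome 10, 90912096 to 90921087) had too few counts in SUM159 to be tested there, with 0.337, 0.117 and 0.387 CPM in No gRNA, 0.0560, 0.0580 and 0.0582 in gRNA 4 cells and 0.0557, 0.0553 and 0.106 in All gRNA cells. The means behind these values were 4.92, 0.982 and 1.31 counts per library, so both targeted groups were at or under a floor of 3 counts and no fold is given. In MDA-MB-231 it stood at 514, 488 and 525 CPM in No gRNA, 781, 764 and 769 in set 1 and 478, 476 and 479.5 in set 2. Set 1 was 0.61 higher on the log2 scale (standard error 0.0256, moderated adjusted p = 1.42e-08). Set 2 was at -0.066 (adjusted p = 0.0664), just below every No gRNA library, and at 0.20 against wild type (adjusted p = 0.000284).

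AMOTL2 (chromosome 3, 134355347 to 134375479), an angiomotin family scaffold that holds YAP in the cytoplasm, fell against No gRNA in SUM159 and was called in neither set of MDA-MB-231. It was at 75.5, 76.5 and 77.7 CPM in SUM159 No gRNA, 37.3, 41.2 and 42.5 in gRNA 4 cells and 64.0, 54.1 and 44.6 in All gRNA cells, with no overlap between targeted and No gRNA libraries (two-sided exact permutation test, p = 0.0238). The log2 fold change was -0.94 for gRNA 4 (standard error 0.112, moderated adjusted p = 0.00022) and -0.52 for All gRNA (standard error 0.106, moderated adjusted p = 0.00894). In MDA-MB-231 all 9 libraries of No gRNA, set 1 and set 2 lay between 301 and 356 CPM and the changes were -0.071 and -0.058. The difference between the lines was 0.64 (standard error 0.104, moderated adjusted p = 6e-05).

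AJUBA (chromosome 14, 22971177 to 22982551), a LIM domain protein that binds LATS kinases and restrains them, was lower than No gRNA in all 4 comparisons. In SUM159 it was at 163, 145 and 143 CPM in No gRNA, 81.9, 77.5 and 98.6 in gRNA 4 cells and 79.9, 83.8 and 72.4 in All gRNA cells. In MDA-MB-231 it was at 257, 286 and 282 CPM in No gRNA, 248, 222 and 217 in set 1 and 126, 139.9 and 134 in set 2. Every targeted library was below every No gRNA library of its line (two-sided exact permutation test, p = 0.0238 in each line). The log2 fold changes were -0.82 for gRNA 4, -0.93 for All gRNA, -0.26 in set 1 and -1.02 in set 2, with moderated adjusted p-values of 0.000113, 4.54e-05, 0.00748 and 3.49e-07, and the difference between the lines was not called (0.21, adjusted p = 0.126). Against wild type the SUM159 falls were larger (-1.43 and -1.54) and TREAT called both (adjusted p = 0.00997 and 0.00227), while set 1 turned to 0.45 (moderated adjusted p = 0.000196) and set 2 stayed lower at -0.31 (moderated adjusted p = 0.00796).

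LATS2 (chromosome 13, 20973036 to 21061586), the kinase that phosphorylates YAP and TAZ, rose in set 1 from 55.2, 46.9 and 63.8 CPM in No gRNA to 72.6, 85.0 and 92.9, without overlap and by 0.60 on the log2 scale (standard error 0.15, moderated adjusted p = 0.00812). Set 2 overlapped No gRNA at 68.2, 57.8 and 62.4 CPM (0.21, adjusted p = 0.275). In SUM159 the groups stood at 21.7 ± 1.96 CPM (SD, n = 3) in No gRNA, 18.0 ± 1.12 in gRNA 4 cells and 21.9 ± 2.41 in All gRNA cells, and neither change was called (-0.28 and 0.0058, adjusted p = 0.148 and 0.981). The interaction of line and ZEB1 targeting was called by the moderated test for 5 of the 10 genes (25.6% of all genes) and by TREAT for 0 (0.982% of all genes, with 1 member, ANKRD1, under an unadjusted p-value of 0.05 and 0 called by edgeR's quasi-likelihood test with the threshold). These were WWTR1 and AMOTL2, given above, CCN1 at 0.53 (adjusted p = 1.3e-07), LATS2 at 0.53 (adjusted p = 0.0466) and ANKRD1 at 1.88 (adjusted p = 0.00103), the last resting on the few counts of SUM159. Line, run and culture medium coincide for the transduced cells and cannot be told apart.

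**Figure D2:**
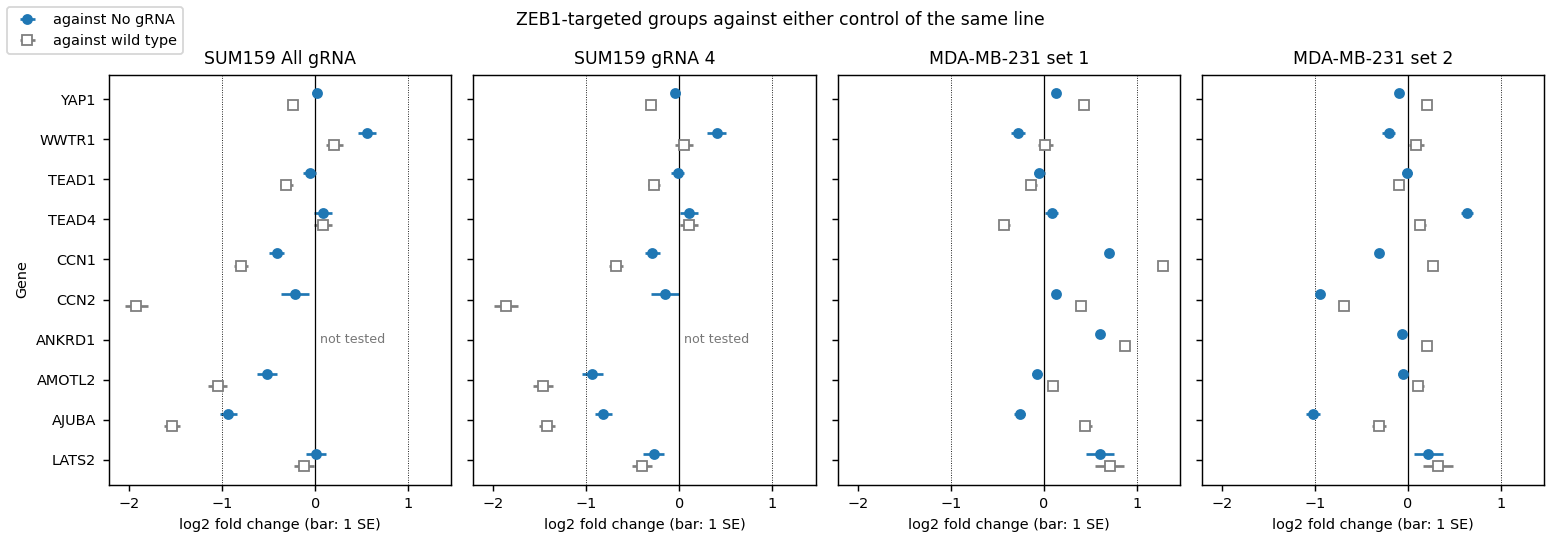
Log2 fold changes of the 10 genes in each ZEB1-targeted group against No gRNA (filled circles) and against wild type (open squares), with bars of 1 standard error, a line at 0 and dotted lines at -1 and 1. AJUBA, AMOTL2 and CCN1 lie below 0 in SUM159 with either control, and in set 2 CCN1 is at -0.31 against No gRNA and 0.27 against wild type.

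Cells with dCas9-KRAB and no guide differed from wild type cells in these genes, mostly downward in SUM159 and upward in MDA-MB-231. In SUM159, No gRNA was lower than wild type for 7 of 9 members by the moderated test and higher for 0 (42.9% of all genes, 21.0% higher and 21.9% lower), with 1 called by TREAT (1.53% of all genes). The one called was CCN2, which stood at 14.6, 13.0 and 13.4 CPM in wild type and 4.22, 3.82 and 4.53 in No gRNA (log2 fold change -1.71, standard error 0.121, TREAT adjusted p = 0.00548), and with any 1 replicate number left out TREAT called 0. In MDA-MB-231, No gRNA was higher than wild type for 7 of 10 members and lower for 1, TEAD4 (53.8% of all genes, 26.2% higher and 27.6% lower), and TREAT called 0 (3.60% of all genes, with 0 members under an unadjusted p-value of 0.05 and 0 called by edgeR). Against wild type, TREAT called 2 of 9 members lower for All gRNA (2.30% of all genes), CCN2 and AJUBA, and 3 of 9 for gRNA 4 (2.46%), these and AMOTL2. The falls of CCN1 and AMOTL2 in All gRNA cells grew to -0.80 and -1.05, and in gRNA 4 cells to -0.68 and -1.47. TREAT called 1 of 10 in set 1 (8.42%), CCN1, and 0 of 10 in set 2 (1.44%), where 0 had an unadjusted p-value under 0.05. The moderated test called 6 of 9 and 7 of 9 in SUM159, all lower (48.7% and 46.8% of all genes), and 7 of 10 and 5 of 10 in the sets (59.5% and 36.3%).

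The size of the effects can be set beside wild type SUM159 cells sequenced in each run, in which no vector was present. Between run 2 and run 1, 9 of 10 members passed the moderated test (55.0% of all genes), 6 higher and 3 lower in run 2, and 1 passed TREAT (6.35% of all genes). Leaving replicate 1 out of every group reduced the 9 to 5. CCN1 was the one past TREAT, at 77.8, 78.3 and 79.5 CPM in run 1 and 239, 244 and 242 in run 2, a log2 difference of 1.62 (standard error 0.0449, TREAT adjusted p = 4.9e-10). This difference between runs of wild type cells was larger than the change of CCN1 in each ZEB1-targeted comparison with either control. CCN2 differed by 0.62, AJUBA by -0.92, TEAD1 by -0.77, WWTR1 by -0.53 and LATS2 by 0.52. Whether the cells of the runs also differed in passage, density or RNA preparation is not given in the sources used here.

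**Figure D3:**
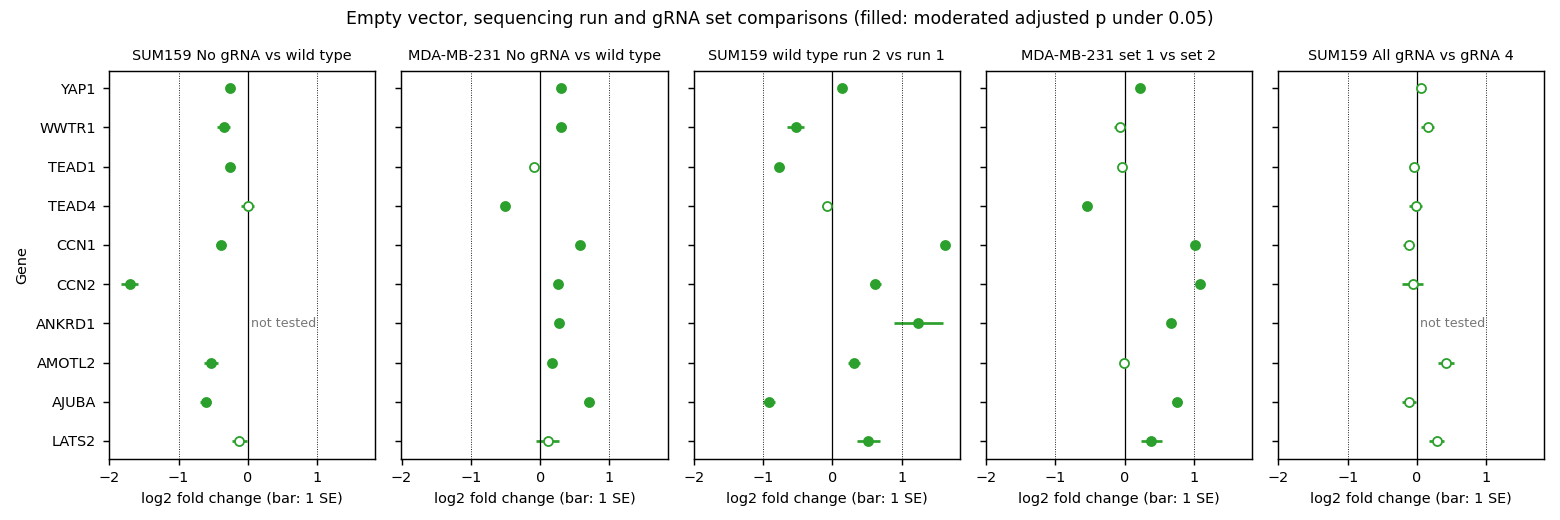
Log2 fold changes of the 10 genes with bars of 1 standard error for No gRNA against wild type in each line, SUM159 wild type run 2 against run 1, set 1 against set 2, and All gRNA against gRNA 4. Filled points passed the moderated test: 7 of 9, 8 of 10, 9 of 10, 7 of 10 and 0 of 9 in that order, with CCN1 at 1.62 between runs.

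The 2 sets of MDA-MB-231 cells had similar ZEB1 levels and differed in most members. By the moderated test 6 of 10 members were higher in set 1 than in set 2 and 1, TEAD4, was lower (51.5% of all genes, 26.3% higher and 25.2% lower), and TREAT called 0 (3.07% of all genes, with 1 member under an unadjusted p-value of 0.05). CCN2 differed by 1.08 (standard error 0.023, TREAT adjusted p = 0.0576), CCN1 by 1.02 (standard error 0.0156), AJUBA by 0.76, ANKRD1 by 0.67, LATS2 by 0.39 and YAP1 by 0.23. EdgeR's quasi-likelihood test with the same threshold called 1 member here. The sets also differed in markers of cell state: VIM, the mesenchymal filament, was at 1321 ± 3.72 CPM in set 1 and 2509.8 ± 39.1 in set 2, and the epithelial markers did not all point one way. KRT8, a keratin, was at 242 ± 9.47 CPM in set 1 and 1012 ± 38.8 in set 2 and EPCAM, an adhesion molecule, at 290.3 ± 8.73 and 381 ± 4.38, while CDH1 (E-cadherin) was higher in set 1, at 17.8 ± 7.03 and 3.01 ± 1.91. Set 1 minus set 2 was -0.41 for EPCAM and 2.65 for CDH1 (moderated adjusted p = 4.29e-06 and 0.00083). Their part in the result was not tested. In SUM159, All gRNA and gRNA 4 differed for 0 of 9 members by the moderated test (0.944% of all genes), with 2, AMOTL2 at 0.42 (standard error 0.117) and LATS2 at 0.28 (standard error 0.112), under an unadjusted p-value of 0.05 and 0 called by edgeR.

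The remaining genes of the pathway were read from 4 further lists. Of 5 other TEAD genes and cofactors, 4 had enough counts. In SUM159 limma's moderated test called 0 of the 4 in each comparison, with 1 in each under an unadjusted p-value of 0.05, and in MDA-MB-231 set 1 and set 2 each had 2 higher and 0 lower, or 2 of 4 against 37.8% and 52.4% of all genes. VGLL3, a cofactor that binds TEAD, rose from 26.6 ± 2.42 CPM (SD, n = 3) to 59.4 ± 5.22 in set 1 and 40.7 ± 1.53 in set 2 (1.17 and 0.64 on the log2 scale, moderated adjusted p = 5.71e-05 and 0.00316). TEAD3 rose in set 1 (0.49, adjusted p = 0.00215) and VGLL4 in set 2 (0.83, adjusted p = 0.00153). Of 18 Hippo kinases and upstream regulators, 1 was higher and 0 lower in All gRNA cells, 1 higher and 1 lower in gRNA 4 cells, 6 higher and 0 lower in set 1, and 6 higher and 3 lower in set 2. With 10.8%, 11.0%, 37.8% and 52.4% of all genes called in these comparisons, the shares of this list, 1, 2, 6 and 9 of 18, were near or below the background. AMOTL1, another angiomotin scaffold, was the one higher in both SUM159 groups (0.65 and 0.45, adjusted p = 0.00501 and 0.0361), the opposite direction to AMOTL2, but neither call held against wild type, where it was at 0.19 for All gRNA and -0.0054 for gRNA 4 (adjusted p = 0.19 and 0.974). WWC1 (KIBRA), which activates LATS kinases, rose from 99.4 ± 9.60 CPM to 175 ± 7.21 in set 1 and 305 ± 12.6 in set 2, and TREAT called the latter (1.64, adjusted p = 2.63e-05). FRMD6, a FERM domain protein upstream of the kinases, rose in set 1 from 595 ± 16.6 to 1244 ± 52.0 CPM (1.07, moderated adjusted p = 1.63e-09) and fell in gRNA 4 cells in SUM159 (-0.45, adjusted p = 0.0426).

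Of 16 further targets of YAP and TAZ, 2 were higher and 3 lower in All gRNA cells, 1 higher and 4 lower in gRNA 4 cells, 3 higher and 6 lower in set 1, and 3 higher and 5 lower in set 2. That is 5, 5, 9 and 8 of 16, beside 10.8%, 11.0%, 37.8% and 52.4% of all genes, so that the share in set 2 was no higher than the background. Their median log2 fold changes were -0.11, -0.18, 0.0087 and -0.081. CCDC80, a secreted matrix protein, fell most in SUM159, from 30.7, 28.2 and 23.5 CPM in No gRNA to 8.03, 5.23 and 3.06 in gRNA 4 cells and 4.42, 5.32 and 3.69 in All gRNA cells, and TREAT called both (-2.43 and -2.62, adjusted p = 0.0227 and 0.0126). Against wild type the falls were -1.83 and -2.02 and TREAT called neither (adjusted p = 0.144 and 0.0588). AXL, a receptor tyrosine kinase, fell in SUM159 from 179.8 ± 11.5 to 110.4 ± 4.78 and 116 ± 3.81 CPM (-0.71 and -0.64, moderated adjusted p = 1.04e-05 and 2.33e-05), and it was 0.16 in set 1 and -0.36 in set 2, both called. NT5E went the other way in SUM159, at 0.53 for gRNA 4 and 0.79 for All gRNA (moderated adjusted p = 0.00135 and 6.57e-05). Against wild type NT5E was at -0.090 and 0.16, and the moderated test called neither (adjusted p = 0.358 and 0.0881). F3, tissue factor, rose in set 1 (1.16, moderated adjusted p = 5.04e-09) and set 2 (0.97, adjusted p = 9.66e-09), from 169.5 ± 3.10 CPM to 377 ± 6.88 and 327 ± 4.70. In SUM159 the moderated test called F3 higher for All gRNA (0.50, adjusted p = 0.00697), but against wild type that change was -1.31. GADD45A, a stress response gene, went up in set 1 (0.60) and down in set 2 (-1.55, TREAT adjusted p = 0.000154). Against wild type the set 1 change was 2.54 (TREAT adjusted p = 1.63e-08) and the set 2 change was 0.38. No gRNA itself lay above wild type by 1.93 (TREAT adjusted p = 3.57e-06).

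**Figure D4:**
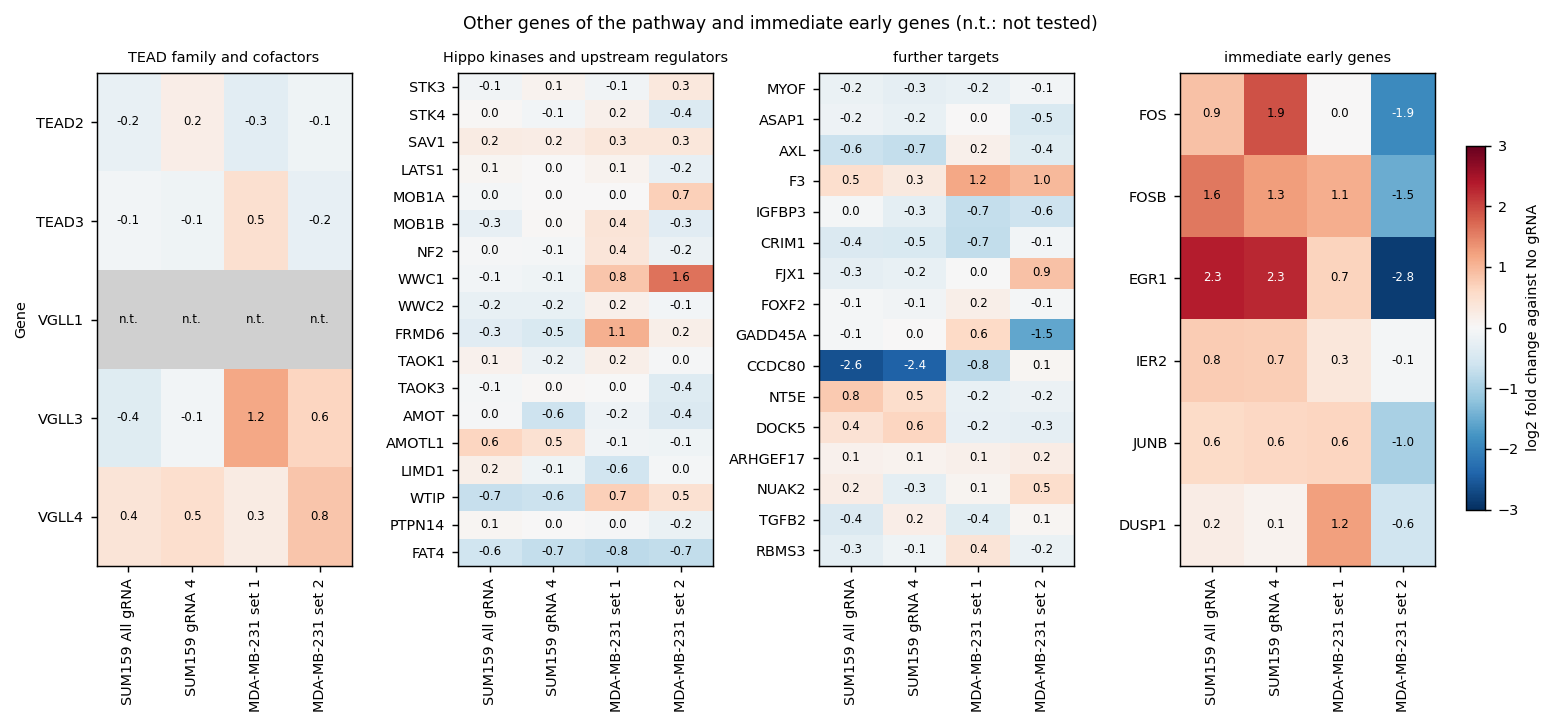
Log2 fold changes against No gRNA (colour and printed value) of the 45 genes of the 4 further lists in the 4 ZEB1-targeted groups, with n.t. for genes with too few counts. EGR1 is at 2.34 and 2.27 in SUM159, 0.66 in set 1 and -2.84 in set 2, and CCDC80 at -2.62 and -2.43 in SUM159.

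Immediate early genes, which serum, stress and handling induce within minutes and of which CCN1 and CCN2 are themselves known as members, differed between the MDA-MB-231 sets. Of 6 tested (FOS, FOSB, EGR1, IER2, JUNB and DUSP1), 5 were higher and 0 lower in set 1, 0 higher and 5 lower in set 2, and 6 higher in set 1 than in set 2, 4 of these by TREAT. All genes were called at 37.8%, 52.4% and 51.5% in these comparisons, and at 3.07% by TREAT between the sets. EGR1, a zinc finger factor of this class, was at 199, 186 and 193 CPM in MDA-MB-231 wild type, 404, 397 and 379 in No gRNA, 594, 640.3 and 623 in set 1 and 51.9, 56.7 and 53.5 in set 2. That is the order of CCN2 across the same groups. The list did not share this order: wild type cells had a mean of 264 CPM of FOS, against 36.2 for No gRNA, 35.8 for set 1 and 9.65 for set 2, and 114 CPM of FOSB, against 4.88, 10.6 and 1.83. Both were highest in wild type, where CCN1 and CCN2 were below No gRNA and set 1. In SUM159 4 of the 6 were higher and 0 lower in both comparisons (10.8% and 11.0% of all genes), and EGR1 went from 8.55, 7.46 and 9.61 CPM in No gRNA to 38.6, 42.7 and 43.3 in gRNA 4 cells and 47.2, 40.7 and 42.4 in All gRNA cells, while CCN1 fell and CCN2 was not called. Wild type SUM159 cells of run 1 had 44.4, 41.7 and 44.3 CPM, so the low group was No gRNA, and against wild type EGR1 was at -0.082 and -0.011 (moderated adjusted p = 0.439 and 0.924). The part of immediate early induction in the CCN1 and CCN2 values was not tested.

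**Figure D5:**
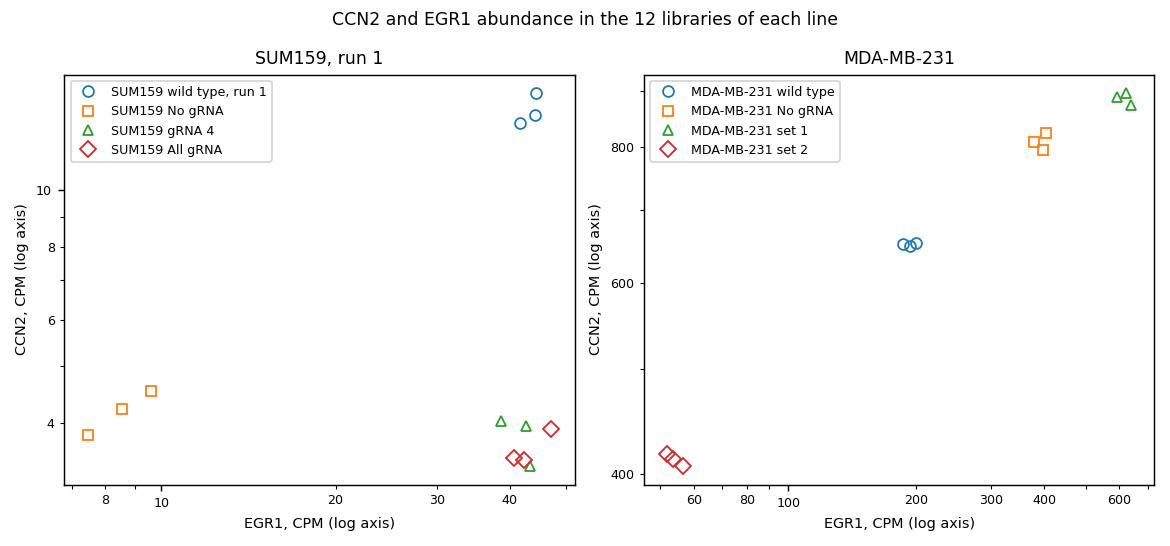
CCN2 against EGR1 abundance in the 12 libraries of each line, both in CPM on log axes, with 3 points per group. In MDA-MB-231 the groups lie along 1 rising line from set 2 to wild type, No gRNA and set 1. In SUM159 the wild type and both ZEB1-targeted groups share mean EGR1 levels of 41.6 to 43.4 CPM. Mean CCN2 in these groups is 13.7 CPM in wild type, 3.78 in gRNA 4 cells and 3.61 in All gRNA cells.

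The genes most like CCN1 and CCN2 were ranked by Pearson's r of log2 CPM over the 12 libraries of a line, which are 4 groups of 3. In MDA-MB-231 the groups did not overlap in either gene, so r follows 4 group means. In SUM159 the transduced groups overlapped in CCN2 and lay far below wild type, so r for CCN2 mostly follows wild type against transduced cells. For CCN1 the gRNA 4 and All gRNA libraries overlapped. In MDA-MB-231 the 5 genes nearest to CCN1 were FERMT2 (r = 0.997), S100A16, MYC, SERPINB2 and SRPRA (r = 0.993), and those nearest to CCN2 were EGR1 (r = 0.994), CCNA1, CXCL2, DUSP5 and TMEM106B (r = 0.981). In SUM159 they were TEX261 (r = 0.976), SPECC1L, TRIM58, CTSZ and JMJD8 (r = 0.971) for CCN1, and RFC3 (r = 0.991), SRSF6, SLC26A2, PTX3 and CHORDC1 (r = 0.989) for CCN2, with no gene shared between the lines. Among the members, CCN1 followed ANKRD1 most closely in MDA-MB-231 (r = 0.984 over 12 libraries), then YAP1 (r = 0.909), LATS2 (r = 0.747) and CCN2 (r = 0.637). Its r with TEAD4 was -0.703. In SUM159 CCN1 followed AJUBA (r = 0.958) and AMOTL2 (r = 0.89), and CCN2 followed YAP1 (r = 0.897).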

How the data were processed

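Each of 27 libraries was read from one end (50 bp). The authors deposited estimated counts, summarised by gene from Salmon with tximport, corrected for transcript length, without scaling between libraries. The submitters' notes name GRCh38. The annotation and strandedness are not given in the sources used here. Of 57165 gene identifiers, 56347 matched GENCODE 44, and every column was mapped to a sample. Counts were fitted with voom (offset 0.5) and limma 3.58.1 in R 4.3.3, with TMM, filterByExpr (edgeR 4.0.16, minimum count 10) and Benjamini-Hochberg adjustment over all genes. The 12 libraries of a line entered 1 fit, and all 27 entered 1 fit for line, run and interaction. Calls used TREAT at a log2 fold change of 1 or the moderated test against 0. DESeq2 1.42.0 and edgeR used rounded counts. Exact permutation tests (scipy 1.17.1) compared mean log2 CPM with a prior count of 2, and 3 libraries against 3 cannot reach a p-value under 0.1. Over well counted genes, replicates varied beyond counting error, with a median variance of 3.15 to 4.99 times the mean. This median does not describe each member. CCN1 in set 2 varied less than counting error, at 1197 ± 2.04 CPM (SD, n = 3) and a mean of 20030.6 counts. AJUBA in SUM159 gRNA 4 cells varied more, at 86.0 ± 11.2 CPM and a mean of 1470.94 counts. The steps were tested on simulated data. The 10 members and the lists were chosen with earlier results of these data known. Other genes named are ZEB1, markers, up to 2 highest and 2 lowest changes past the moderated test in each list and comparison, and the 5 genes nearest to CCN1 and CCN2. WTIP is named for its called interaction.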

Additional observations from a re-analysis of the deposited data

Results flagged for a closer look

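The effect of ZEB1 targeting, taken as the mean of both targeted groups against No gRNA, differed between the lines by the moderated test of the interaction for 5 members. Of all genes tested, 25.6% were called. As MDA-MB-231 minus SUM159 on the log2 scale, the difference was -0.74 for WWTR1, 0.53 for CCN1, 1.88 for ANKRD1, 0.64 for AMOTL2 and 0.53 for LATS2. CCN1 averages a rise in set 1 and a fall in set 2, and ANKRD1 rests on means of 0.982 to 4.92 counts in SUM159. Among the other Hippo and TEAD genes the difference was -0.68 for AMOTL1, 1.00 for FRMD6, 1.32 for WWC1, 0.36 for MOB1A and 1.10 for VGLL3. WTIP was called too, at 1.24 (moderated adjusted p = 0.0428), with a mean of 27.1 counts in SUM159 No gRNA and 17.5 in each targeted group. Among the further targets it was -0.88 for NT5E, 0.65 for F3, 2.15 for CCDC80, 0.56 for AXL, -0.46 for GADD45A, 0.66 for FJX1 and -0.52 for IGFBP3. For the immediate early genes it was -3.42 for EGR1, -1.64 for FOSB, -0.63 for IER2, -2.35 for FOS and -0.78 for JUNB. Line, run and culture medium cannot be told apart in these values. They also depend on No gRNA as the control. Against wild type WWTR1 was at 0.21 for All gRNA, 0.051 for gRNA 4, 0.018 in set 1 and 0.0885 in set 2, none of them called. In the same order EGR1 was at -0.011, -0.082, 1.63 and -1.86, and AMOTL2 at -1.05, -1.47, 0.095 and 0.11. The interaction with wild type as the control was not tested.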

How the results depend on the processing

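Of 202 counts of members called under another scaling, filter, tool, set of libraries or control, 189 stayed within 1.5 times the reported count. With wild type as the control, TREAT called 2 members for All gRNA, 3 for gRNA 4 and 1 in set 1, and the moderated test 7 for gRNA 4. Without the filter the moderated test called 2 for gRNA 4, and single libraries left out gave 2 to 3. Without 1 replicate number, TREAT called 0 between SUM159 No gRNA and wild type, and the moderated test 5 to 9 between runs. EdgeR called 1 member by the threshold between the sets. Replicate numbers did not pair the libraries (correlations of same-numbered deviations -0.065 to 0.045), and the fit with the replicate block called 4, 3, 7 and 5 members by the moderated test for All gRNA, gRNA 4, set 1 and set 2.

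Wild type as the control reversed the sign of these log2 fold changes. For All gRNA they became -0.24 (YAP1), -0.12 (LATS2), -1.31 (F3), -0.011 (EGR1), -0.29 (DUSP1) and -0.28 (IER2). For gRNA 4 they became -0.0054 (AMOTL1), -0.090 (NT5E), -0.082 (EGR1) and -0.31 (IER2). In set 1 they became 0.018 (WWTR1), -0.42 (TEAD4), 0.095 (AMOTL2), 0.45 (AJUBA) and -3.49 (FOSB). In set 2 they became 0.20 (YAP1), 0.0885 (WWTR1), 0.27 (CCN1), 0.20 (ANKRD1), 0.11 (AMOTL2), -0.26 (MOB1A), 0.022 (TAOK3), 0.38 (GADD45A) and 0.14 (JUNB). Without the filter TEAD1 in set 2 was 0.0094. Leaving out single libraries moved values near 0 across it: YAP1 (-0.021 to 0.0445), TEAD4 (-0.027 to 0.17) and LATS2 (-0.083 to 0.059) for All gRNA, TEAD1 (-0.072 to 0.042) and TEAD4 (-0.0098 to 0.19) for gRNA 4, and TEAD1 (-0.057 to 0.041) in set 2. The cause of these changes was not tested.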
